A study of Mus musculus with 8 samples.

Results

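Cells of mouse pancreatic islets that carried both an alpha cell lineage mark and an active insulin reporter, called transdifferentiated cells, were set against beta cells. Genes entered the comparison when their expression reached at least 5 RPKM (read counts divided by gene length and library depth) in at least 2 of the 5 libraries of these groups, which left 8076 of the 26786 genes above 0 in the series. A gene below 5 RPKM in every beta library entered only if both transdifferentiated libraries reached that limit. Such a gene lay above beta by the rule itself. In the same way, a gene below 5 RPKM in both transdifferentiated libraries entered only through the beta libraries and could not come out higher. RNA came from sorted islet cells of adult triple transgenic mice that carried Ins1-H2b-mCherry (a red nuclear protein driven by the Ins1 promoter), Gcg-cre (Cre recombinase under the glucagon gene) and a floxed YFP allele that Cre switches on. Transdifferentiated cells carried both labels (2 libraries, replicate 1 male and replicate 2 female), beta cells the red label (3 libraries, replicates 1 and 2 female and replicate 3 male), and alpha cells, used here as the second reference, the yellow lineage label (3 libraries, replicates 1 and 2 male and replicate 3 female). Each library pooled the islets of 10 to 12 animals of 1 sex, which had been kept overnight in 5.5 mM glucose before sorting, and the series text also speaks of bitransgenic females without naming their libraries. A cell enters the transdifferentiated gate through a history of Gcg-driven Cre and current Ins1-driven mCherry, so that neither Gcg nor Ins1 RNA is independent of the sort.

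Depth differed between the groups. The deposited RPKM step in units of 1 read, which gave library sizes of 1244504 and 2167796 reads in the transdifferentiated libraries and 12914166 to 21399833 in the 6 others. A single read over a gene of 2 kb equalled 0.402 and 0.231 RPKM at these depths and 0.0234 to 0.0387 RPKM in the reference libraries. The median member had 68 and 116 reads in the transdifferentiated libraries, and 277 members had fewer than 10 reads in 1 of them. The titles of 4 libraries (beta replicates 2 and 3, alpha replicates 2 and 3) carry a letter b that no label explains, and neither transdifferentiated library does.

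Beta cells make insulin and release it when glucose is taken up and metabolized, closing the potassium channel formed by Abcc8 and Kcnj11, so that calcium enters and granules fuse. Mafa, Pdx1 and Nkx6-1 are transcription factors that keep the adult beta cell able to do this, and Mafa, Ucn3 and G6pc2 are among the genes that come on late as beta cells mature. Alpha cells share much of the secretory machinery but make glucagon and express Irx factors. In the mouse islet, some cells of alpha descent are known to acquire insulin expression.

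Among the genes that did not lie at an alpha cell level, the surface protein gene Tspan8 and the glucose-responsive transcription factor gene Mlxipl, which encodes ChREBP, stood above both references. The RefSeq promoters of these genes (GRCm38.p6, 250 bases up to the start of transcription, plus strand) are shown because Mlxipl has 2 starts of known difference: the upstream start gives the shorter protein, whose own promoter ChREBP is known to act on. Capitals mark CACGTG, the E-box core searched for, which is its own reverse complement and was found in 6.05% of 27025 mouse promoters of this length.
Tspan8, chr10:115817034-115817283: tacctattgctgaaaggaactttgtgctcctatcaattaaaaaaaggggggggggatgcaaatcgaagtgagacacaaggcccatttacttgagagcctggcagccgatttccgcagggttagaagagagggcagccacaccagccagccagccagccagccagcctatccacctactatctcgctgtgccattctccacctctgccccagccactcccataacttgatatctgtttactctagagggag
Mlxipl, downstream start, chr5:135106641-135106890: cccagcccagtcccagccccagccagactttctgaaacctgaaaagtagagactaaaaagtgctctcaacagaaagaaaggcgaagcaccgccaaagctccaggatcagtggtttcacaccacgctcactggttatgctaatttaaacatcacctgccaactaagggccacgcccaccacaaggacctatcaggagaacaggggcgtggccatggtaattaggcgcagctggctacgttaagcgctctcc
Mlxipl, upstream start, chr5:135089640-135089889: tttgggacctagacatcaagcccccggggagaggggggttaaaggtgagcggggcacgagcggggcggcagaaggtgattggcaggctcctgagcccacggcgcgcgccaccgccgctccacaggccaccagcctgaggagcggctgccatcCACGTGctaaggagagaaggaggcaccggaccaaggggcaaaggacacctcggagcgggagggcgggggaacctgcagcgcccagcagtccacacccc
Only the upstream Mlxipl window holds the letters, 98 bases before its start. The Mlxipl starts lie 17.0 kb apart within one gene, and an RPKM for the whole gene does not tell reads of one start from those of the other.

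The labels were checked on the hormone genes Gcg and Ins2, while Mafa and G6pc2 are given further below with their lists. Gcg (chr2:62474530-62483650, GRCm38), which encodes glucagon, was at 19400 and 19100 RPKM in transdifferentiated cells, 478, 1770 and 625 RPKM in the beta and 196000, 170000 and 172000 RPKM in the alpha libraries. It stood above every beta library and at 10.7% of the mean alpha level, with a log2 fold change over beta of 4.60 (SE 0.53, adjusted p = 0.00538). Ins2, the major mouse insulin gene, was at 87100 and 94200 RPKM against 142000, 116000 and 157000 RPKM in beta and 820 to 1090 RPKM in alpha cells, and its difference from beta was not called (log2 fold change -0.64, SE 0.27, adjusted p = 0.154; 0.0369 by limma-voom). Ins2 was thus highest in the beta and Gcg highest in the alpha libraries, and the transdifferentiated libraries carried both hormones. Since Gcg RNA is not independent of the sort, its level is no separate check of the gate. In RNA from many cells, fewer cells of a type and less RNA per cell cannot be told apart.

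Of the 8076 members, 952 were called between transdifferentiated and beta cells (11.8%; limma, adjusted p under 0.05). There were 682 higher in transdifferentiated cells (8.44%) with a median log2 fold change of 0.77, and 270 lower (3.34%) with a median of -0.64. The direction of the calls moved with the scaling. Higher calls made up 71.6% of all calls on the deposited scale, 41.8% after median-ratio scaling (442 higher, 616 lower) and 55.3% after quantile normalization, as the median log2 fold change of all members moved from 0.03 to -0.1 and -0.04. With limma-voom on the recovered reads, which gives less weight to genes with few reads, 331 members were higher (4.1%) and 91 lower (1.13%), and 420 of these 422 calls were also made by the fit on RPKM. With letter b as a further term, 952 members were higher (11.8%) and 305 lower (3.78%). The spread was estimated over all 8 libraries. A fit on the 5 libraries of the comparison alone called 0 members (lowest adjusted p 0.0551), with 2008 at an unadjusted p under 0.05. Leaving out 1 library gave 162 calls without beta replicate 3, 318 without beta replicate 1, 394 without transdifferentiated replicate 1 and 499 to 939 without any other library. Of the 100 called genes named by rule, none changed direction in any of 20 alternatives, while 63 kept their call with limma-voom and 39 without beta replicate 3.

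**Figure D1:**
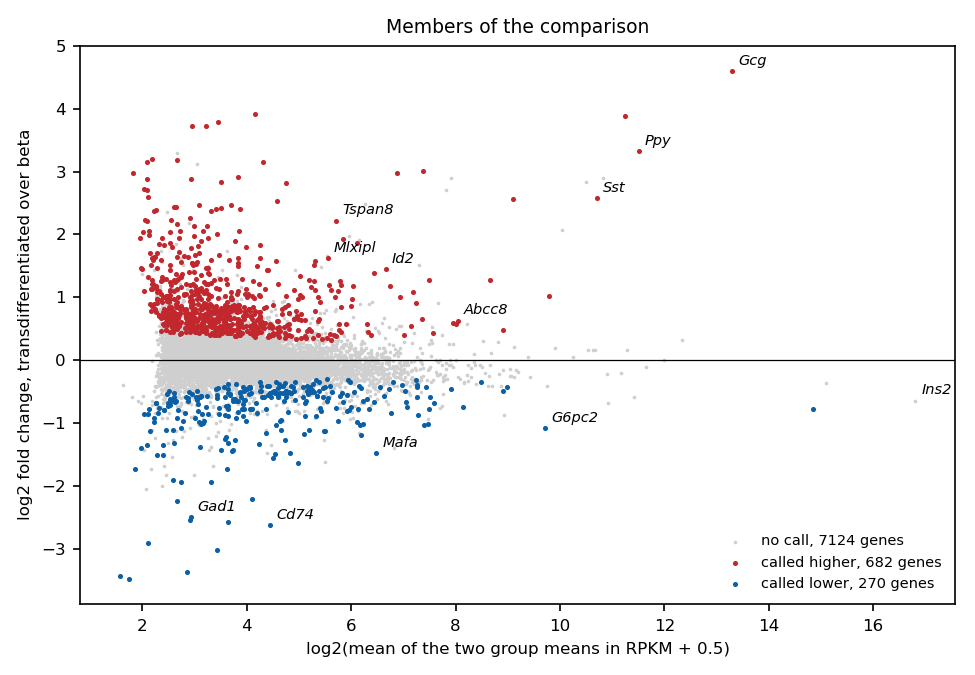
Each point is 1 of the 8076 members: the horizontal axis is log2 of the mean of the transdifferentiated and beta group means in RPKM plus 0.5, the vertical axis the log2 fold change of transdifferentiated over beta cells. The 682 genes called higher are red, the 270 called lower blue and the 7124 without a call grey; Gcg lies highest at 4.60, and Ins2, the most abundant, is not called.

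Genes were next set against both references, since a gene raised to an alpha cell level says less than one that lies outside the range of both. Both transdifferentiated libraries lay above all 6 reference libraries for 1042 members (12.9%), of which 321 were called higher than beta, and below all 6 for 117 members (1.45%), of which 27 were called lower. Among members whose alpha and beta means differed by less than 0.5 on the log2 scale, 290 were called higher and 42 lower. The total of such members is not given here, so these counts cannot be set against the 8.44% and 3.34% of all members. Both counts include genes that entered only through 1 of the groups compared, such as Plekhg6 among the higher and Smap1 among the lower.

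Tspan8 (chr10:115816832-115849893), a tetraspanin of the cell surface, was at 86.6 and 84.0 RPKM in transdifferentiated, 13.6, 21.3 and 19.5 RPKM in beta and 24.7, 22.4 and 25.7 RPKM in alpha libraries. Both transdifferentiated values were more than 3 times the highest of the 6 references. Its mean was 4.7-fold that of beta (log2 fold change 2.22, SE 0.18, adjusted p = 0.0025; limma-voom adjusted p = 0.00207) and 3.52-fold that of alpha (log2 fold change 1.80, adjusted p = 0.000665), and the call over beta was lost only in the fit on 5 libraries. Mlxipl (chr5:135089890-135138382) was at 85.6 and 55.1 RPKM, against 13.4, 26.6 and 26.7 RPKM in beta and 1.83 to 2.46 RPKM in alpha cells. Since alpha cells had less Mlxipl RNA than beta cells, its 3.16-fold rise (log2 fold change 1.63, SE 0.31, adjusted p = 0.0231; limma-voom 0.0211) was away from the alpha level. The Mlxipl call was lost without beta replicate 3 (adjusted p = 0.0755) and without transdifferentiated replicate 1 (0.0947). Id2 (chr12:25093799-25097140), an inhibitor of basic helix-loop-helix transcription factors, was at 162 and 135 RPKM, above 48.5 to 56.8 RPKM in beta and 59.8 to 85.0 RPKM in alpha cells (log2 fold change 1.45, SE 0.16, adjusted p = 0.0044).

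Several genes that were low in both references were higher as well. Of these, Plekhg6 and Apof were below 5 RPKM in every beta library and entered only through the transdifferentiated libraries. Their place above beta was thus set by the member rule. Folr1, a folate receptor, was at 19.6 and 25.9 RPKM against 4.52 to 5.58 RPKM in beta and 7.55 to 10.5 RPKM in alpha libraries (log2 fold change 2.05, SE 0.19, adjusted p = 0.00303). Plekhg6, a guanine nucleotide exchange factor gene, was at 22.9 and 10.1 RPKM and below 3 RPKM in every reference library (2.37, SE 0.31, adjusted p = 0.00879), with the male pool above the female. The proprotein convertase gene Pcsk4, best known from germ cells, was at 19.0 and 13.9 RPKM against 3.9 to 5.39 RPKM in beta and 3.04 to 3.91 RPKM in alpha cells (1.68, SE 0.19, adjusted p = 0.00544). Apof, an apolipoprotein gene, was at 14.6 and 10.5 RPKM against 1.86 to 3.11 RPKM in beta (2.13, SE 0.23, adjusted p = 0.0044). For each of these 4 genes both transdifferentiated libraries lay above all 6 references and limma-voom also made the call (adjusted p 0.00316 to 0.00699); Plekhg6 lost it without beta replicate 3 (0.0511).

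Eno3, the muscle form of the glycolytic enzyme enolase, Fndc5, the precursor of irisin, and Pla2g2d, a secreted phospholipase, followed at lower levels. Eno3 was at 11.6 and 14.9 RPKM against 3.7 to 5.17 RPKM in the beta libraries (log2 fold change 1.46, adjusted p = 0.00674), Fndc5 at 5.53 and 6.68 against 1.44 to 2.37 RPKM (1.51, adjusted p = 0.0111), and Pla2g2d at 13.3 and 13.6 against 3.63 to 5.85 RPKM (1.38, adjusted p = 0.0161). Fndc5 and Lmntd2 were below 5 RPKM in every beta library, so the member rule itself placed them above beta. Sult1d1, a sulfotransferase, was at 31.4 and 24.4 RPKM against 5.45 to 13.2 RPKM (1.63, adjusted p = 0.0268), and Lmntd2 had a log2 fold change of 1.44 (adjusted p = 0.0443). For Sult1d1 and Lmntd2 the difference from alpha cells was not called (log2 fold change 0.97 for each, adjusted p 0.0655 and 0.0797). Neither of the last pair was called by limma-voom (adjusted p 0.0543 and 0.111), and leaving out beta replicate 3 ended the calls of Sult1d1 (0.111), Lmntd2 (0.0565) and Fndc5 (0.0593), as did leaving out transdifferentiated replicate 1 those of Sult1d1 (0.104), Lmntd2 (0.0932) and Pla2g2d (0.0621). Sult1d1 also lost its call without alpha replicate 2, beta replicate 1 or transdifferentiated replicate 2, and Lmntd2 without beta replicate 2, transdifferentiated replicate 2 or any 1 alpha library. The remaining 8 of the 15 largest changes above both references were short RNA genes: Rmrp, Snord55, Snord35b, Snord35a, Snord34, Snora68, Snord71 and Mir378b. Each rested on 1 to 4 reads in each transdifferentiated library, Snord71 alone of them was called by limma-voom (adjusted p = 0.0493), and the small nucleolar RNA genes lie in introns of host genes whose reads can fall on them.

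**Figure D2:**
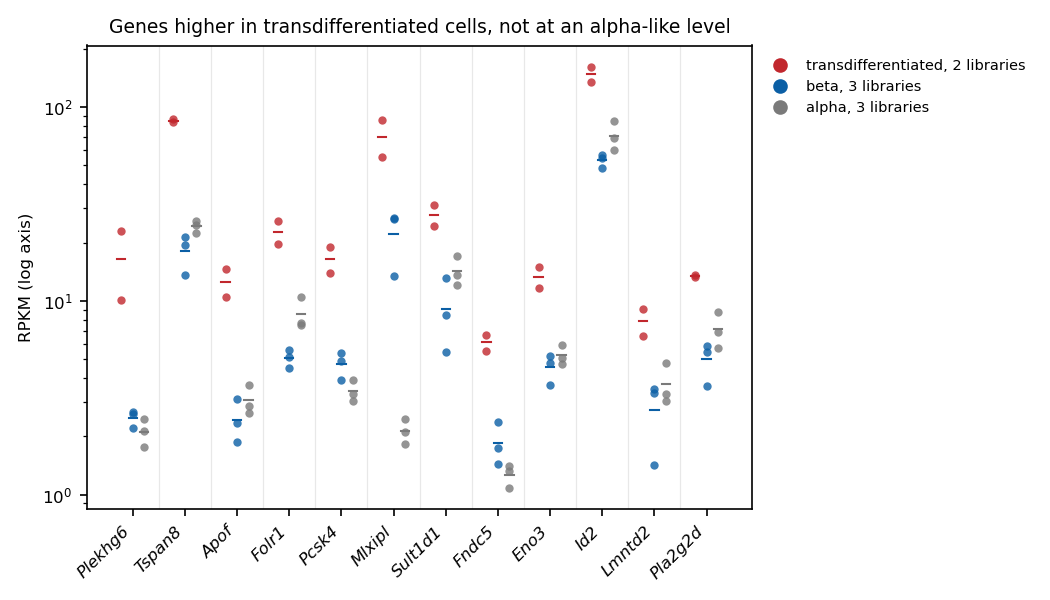
RPKM in every library (points, log axis) with the group mean (bar) for 12 genes called higher in transdifferentiated cells (red, 2 libraries) whose level in both exceeded every beta (blue, 3) and alpha (grey, 3) library. Tspan8 stands at 86.6 and 84.0 RPKM above references of 13.6 to 25.7, and Mlxipl is the gene with the widest gap between alpha and beta cells.

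Beta cell transcription factors were mostly without a call. Of 18 measured, 2 rose, 1 fell and 15 were not called (11.1% and 5.56% against 8.44% and 3.34% of all members; median log2 fold change 0.26 against 0.03). With letter b as a term, 5 were higher and 2 lower. Mafa (chr15:75745490-75748228), an activator of the insulin genes, was at 42.4 and 49.5 RPKM in transdifferentiated, 169, 121 and 106 RPKM in beta and 0.854 to 1.17 RPKM in alpha cells. The transdifferentiated level was 34.8% of the beta mean, below each beta library, and the log2 fold change was -1.47 (SE 0.20, adjusted p = 0.00981; limma-voom 0.0148). Isl1, a LIM homeodomain factor of all islet cells, went the other way, at 68.6 and 64.1 RPKM against 24.7, 36.9 and 31.4 RPKM in beta and 52.7, 54.3 and 60.9 RPKM in alpha cells (log2 fold change 1.11, SE 0.17, adjusted p = 0.0128). Both Isl1 values lay above the alpha libraries as well, but the difference from alpha cells was not called (log2 fold change 0.24, adjusted p = 0.319). The Isl1 call was lost without beta replicate 3 (adjusted p = 0.0563) and without transdifferentiated replicate 1 (0.0544). Mlxipl was the other factor that rose. Pdx1 and Nkx6-1, named here for reference after their values were seen, were not called. Pdx1 was at 67.8 and 64.6 RPKM against 83.0, 78.2 and 73.3 RPKM in beta and 2.14 to 3.73 RPKM in alpha cells (adjusted p = 0.429), and Nkx6-1 at 64.3 and 73.6 against 104, 87.6 and 84.6 RPKM (adjusted p = 0.0626). Mafa thus differed from beta cells by a log2 fold change of -1.47 beside -0.24 for Pdx1 and -0.39 for Nkx6-1; the difference between these genes was not tested.

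Genes of secretory products and granules had 1 call higher and 5 lower among 24 members (4.17% and 20.8%, against 8.44% and 3.34% of all members; median log2 fold change -0.14). Gad1, which makes the transmitter GABA, was lowest relative to beta cells, at 1.79 and 1.87 RPKM (17 and 31 reads) against 12.5, 11.7 and 13.3 RPKM, or 14.6% of the beta level (log2 fold change -2.49, SE 0.15, adjusted p = 0.00106; limma-voom 0.00207). Alpha cells had 0.214 to 0.341 RPKM. Gad1 was below 5 RPKM in both transdifferentiated libraries, entered only through the beta libraries and could not come out higher. Sytl4, a granule docking protein, was at 39.4 and 47.8 RPKM against 93.5 to 108 RPKM (42.6% of beta; -1.18, SE 0.13, adjusted p = 0.0044). Pcsk1, the convertase that starts proinsulin processing, was at 113 and 102 RPKM against 171 to 221 RPKM (53.5%; -0.87, SE 0.12, adjusted p = 0.00999). Ucn3, the peptide urocortin 3, was at 163 and 136 RPKM against 206 to 282 RPKM (-0.68, SE 0.13, adjusted p = 0.023), and Ins1 at 20900 and 23100 against 31700 to 43500 RPKM (-0.77, SE 0.19, adjusted p = 0.0461). Ins1 and Ins2 can share reads. The Ins1 call held in 7 of 20 alternatives; it was lost without any 1 library other than transdifferentiated replicate 2 (adjusted p 0.0554 to 0.186). Ucn3 lost its call when any 1 beta or transdifferentiated library was left out (0.0505 to 0.0993). Stx1a, a membrane fusion protein, rose from 4.55 to 4.95 RPKM in beta to 8.44 and 10.7 RPKM, towards the 10.7 to 13.3 RPKM of alpha cells (0.95, SE 0.11, adjusted p = 0.00501). With every beta library below 5 RPKM, the member rule itself placed Stx1a above beta.

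Genes of glucose sensing and stimulus coupling had 5 calls higher and 8 lower among 23 members (21.7% and 34.8%, against 8.44% and 3.34% of all members). G6pc2 (chr2:69211073-69227841), the islet glucose-6-phosphatase, was at 480 and 589 RPKM against 1250, 1170 and 1020 RPKM in beta and 25.4 to 29.3 RPKM in alpha cells, 46.6% of the beta level (log2 fold change -1.08, SE 0.13, adjusted p = 0.0057; limma-voom 0.00398). Slc2a2, the glucose transporter GLUT2, was at 28.6 and 14.7 RPKM against 43.2 to 49.5 RPKM (-1.17, SE 0.24, adjusted p = 0.0285), a call lost without any 1 beta library or alpha replicate 2 (adjusted p 0.0574 to 0.0834). Ero1lb, an oxidase that forms disulfide bonds in proinsulin, was at 105 and 112 RPKM against 200.0 to 262 RPKM (-1.03, SE 0.11, adjusted p = 0.00471). Fam151a fell as well (-0.95, adjusted p = 0.0044), and so did Gcgr, the glucagon receptor, at 6.44 and 4.4 RPKM against 9.06 to 13.7 RPKM (-1.01, adjusted p = 0.0337), which limma-voom did not call (0.0908). The Gcgr call was also lost without alpha replicate 1 or any 1 beta or transdifferentiated library (0.0514 to 0.157). In the other direction, Gpr119, a lipid receptor coupled to cyclic AMP, was at 12.7 and 9.35 RPKM against 2.57 to 3.77 RPKM in beta and 31.0 to 36.4 RPKM in alpha cells (1.54, SE 0.17, adjusted p = 0.0044). With every beta library below 5 RPKM, the member rule itself placed Gpr119 above beta.

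Some coupling genes rose above both references; the following were named after their values were seen. Abcc8, the sulfonylurea receptor of the potassium channel, was at 335 and 303 RPKM against 195 to 223 RPKM in beta and 214 to 260.0 RPKM in alpha cells (log2 fold change 0.63, SE 0.11, adjusted p = 0.0189; limma-voom 0.019). Kcnk16, the potassium channel TALK-1, was at 191 and 203 RPKM against 77.6 to 124 and 131 to 161 RPKM (0.91, SE 0.19, adjusted p = 0.0291). The Abcc8 call held in 14 of 20 alternatives (adjusted p 0.0138 to 0.0913) and the Kcnk16 call in 12 of 20 alternatives (adjusted p 0.0185 to 0.115). The channel subunit Kcnj11 (93.2 and 74.3 RPKM against 64.0 to 73.7 in beta) was not called (adjusted p = 0.179). The lists of beta cell genes thus held called members on both sides of the beta level.

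**Figure D3:**
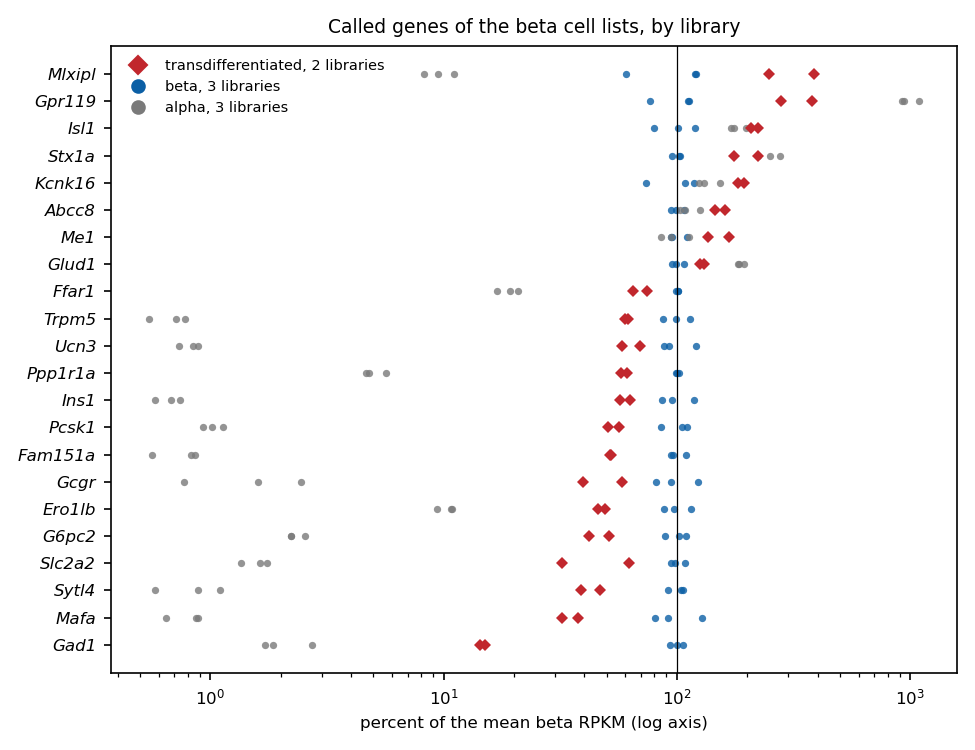
Each called gene of the 3 beta cell lists is shown per library as percent of its mean beta RPKM (log axis; vertical line, 100 percent), with transdifferentiated libraries as red diamonds and beta and alpha libraries as blue and grey points. Mafa and Gad1 sit lowest among transdifferentiated values at 34.8% and 14.6% on average, and for every gene both diamonds lie on 1 side of the beta points. Gad1 entered only through the beta libraries, and Stx1a and Gpr119 only through the transdifferentiated libraries.

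Many, but not all, hormones and markers of other islet cells were higher than in beta cells, towards or up to the levels found in the alpha libraries. Of 12 measured alpha identity genes 9 rose and 0 fell (75% higher against 8.44% of all members; limma-voom 6 and 0; 0 fell at an unadjusted p under 0.05), with a median log2 fold change of 1.49. Tm4sf4, Sh3bgrl and Pcsk2 were the 3 without a call. Irx1, Irx2, Fev and Etv1 were below 5 RPKM in every beta library, entered only through the transdifferentiated libraries and could not come out lower. Irx2, an alpha cell homeobox factor, was at 15.4 and 18.1 RPKM against 0.637 to 1.28 RPKM in beta and 46.1 to 52.5 RPKM in alpha cells (3.73, SE 0.19, adjusted p = 0.000844), at 34.1% of alpha. For 3 other hormones the mean transdifferentiated level was 90% to 162% of the mean alpha level. Pancreatic polypeptide, Ppy, was at 6160 and 4420 RPKM against 344 to 822 RPKM in beta and 4130 to 6220 RPKM in alpha cells (log2 fold change 3.32, adjusted p = 0.00538), 108% of alpha. Peptide YY, Pyy, was at 5280 and 3830 RPKM against 245 to 452 RPKM in beta (3.88, adjusted p = 0.00303), 90% of alpha. Somatostatin, Sst, the delta cell hormone, was at 2890 and 2750 RPKM against 290.0 to 849 RPKM in beta and 1000 to 2840 RPKM in alpha cells (2.58, SE 0.53, adjusted p = 0.0273), 162% of alpha. The Sst call was lost without beta replicate 1, beta replicate 3 or either transdifferentiated library (adjusted p 0.0632 to 0.113). Gcg, by contrast, was at 10.7% of the alpha level.

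Delta cell markers had 4 members higher and 0 lower of 6 (66.7% higher against 8.44% of all members; limma-voom 4 and 0; 0 lower at an unadjusted p under 0.05). With letter b as a term, 3 were higher and 1 lower. Besides Sst these were Rbp4, at 200.0 and 212 RPKM against 20.6 to 39.2 RPKM in beta and 305 to 368 RPKM in alpha cells, Arg1 and Ffar4. Arg1 and Ffar4 were below 5 RPKM in every beta library, entered only through the transdifferentiated libraries and could not come out lower. The other 2 members were not called. Pdyn, the prodynorphin gene, was at 67.9 and 88.4 RPKM, below the 154, 109 and 124 RPKM of the beta libraries (-0.70, SE 0.38, adjusted p = 0.251; -1.20 with letter b as a term), and Fam159b was at 33.7 and 26.4 against 14.7 to 28.3 RPKM (adjusted p = 0.437). Hhex, the factor that defines delta cells, was below the member limit in beta cells and stood at 7.12 and 4.09 RPKM in transdifferentiated cells, 0.727 to 2.29 RPKM in beta and 1.75 to 4.84 RPKM in alpha cells. The part of delta cells in these values was not tested.

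Markers of immune cells were lower than in beta cells. Of 8 measured, 6 fell, 0 rose and 2 were not called (75% lower against 3.34% of all members; limma-voom 4 lower and 0 higher; 0 higher at an unadjusted p under 0.05), with a median log2 fold change of -2.24. Cd74, the invariant chain of MHC class II, was at 12.0 and 2.62 RPKM against 36.1, 31.4 and 38.7 RPKM in beta and 1.65 to 2.22 RPKM in the alpha libraries (-2.62 on the log2 scale, adjusted p = 0.0142). The class II gene H2-Aa fell by 1.94 on that scale (adjusted p = 0.00316). Like Ctss, C1qb, H2-Ab1 and H2-Eb1, it was below 5 RPKM in both transdifferentiated libraries. These genes entered only through the beta libraries and could not come out higher. C1qb had no read in either transdifferentiated library and 3.52 to 5.71 RPKM in beta cells, at least 6.14-fold higher in beta against a floor of 3 reads over the pair, 0.808 RPKM. The summed RPKM of the 20 markers was 40.7 to 56 in transdifferentiated, 138 to 161 in beta and 24.9 to 43.9 in alpha libraries, and Ptprc, Lyz1, Aif1, C1qb and Adgre1 were at 0 in both transdifferentiated libraries. Emilin1, the 1 member among 15 stellate and mesenchymal markers, was also lower, with 3.58 and 2.71 RPKM against 18.5 to 22.1 RPKM (-2.57, adjusted p = 0.00106). The other markers of that list were below the member limit and did not share its direction throughout: Sparc was at 2.15 and 1.51 RPKM against 0.43 to 1.2 RPKM in beta cells, and Rgs5 at 1.06 and 0.507 against 0.141 to 0.391 RPKM. Msln, from the mesothelial list, fell, at 1.14 and 2.4 (3 and 11 reads) against 9.61 to 28.3 RPKM (-3.01, adjusted p = 0.0119), a call that limma-voom did not make (0.198). Emilin1 and Msln were below 5 RPKM in both transdifferentiated libraries, entered only through the beta libraries and could not come out higher. Of the 8 mesothelial markers, 6 were at 0 in both transdifferentiated and in all beta libraries, and Krt19 was not called. Without beta replicate 3 the adjusted p was 0.0508 for Cd74 and 0.0663 for Msln, and without transdifferentiated replicate 1 it was 0.0508 for Msln. The part of such cells in the genes that fell was not tested. Acinar markers had 0 calls among 17 members (0 by limma-voom and 0 at an unadjusted p under 0.05); their summed RPKM ran from 413 to 1220 in transdifferentiated and from 159 to 4650 in beta libraries.

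Duct markers and adhesion genes gave calls in both directions. Of 13 duct markers 2 rose, Tspan8 among them, and 1 fell (15.4% and 7.69%, against 8.44% and 3.34% of all members). Prom1 was the one that fell, at 14.6 and 15.8 RPKM against 30.4 to 38.7 RPKM in beta cells (-1.10, SE 0.16, adjusted p = 0.011). Endocrine progenitor genes had 0 calls among 7 members (0 by limma-voom; 1 higher and 1 lower at an unadjusted p under 0.05), and Neurog3 and Sox9 were below the member limit. Of 19 adhesion genes 3 rose and 1 fell (15.8% and 5.26%). The tetraspanin Cd81 was at 75.4 and 79.9 RPKM, close to alpha cells, against 25.7 to 42.5 RPKM in beta (1.20, adjusted p = 0.00879), and Cdh22, a cadherin that was low in alpha cells (0.632 to 1.03 RPKM), was at 9.77 and 9.22 against 5.05 to 6.5 RPKM (0.66, SE 0.13, adjusted p = 0.0267). Without beta replicate 3 the calls of Prom1 (adjusted p = 0.0565) and Cdh22 (0.113) were lost. Leaving out transdifferentiated replicate 2, beta replicate 1 or beta replicate 2 also ended that of Cdh22 (0.0752 to 0.0797).

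Stress and metabolic lists held 0 to 3 calls each, beside shares of 8.44% higher and 3.34% lower over all members. Of 23 genes of the unfolded protein response 0 rose (limma-voom 0; 0 higher at an unadjusted p under 0.05) and 2 fell (8.7%): Edem1, which marks misfolded glycoproteins for disposal (-1.03, adjusted p = 0.0159), and Dnajb11 (-0.47, adjusted p = 0.0241), with 8 lower at an unadjusted p under 0.05, 5 lower after median-ratio scaling and 4 lower with letter b as a term. The integrated stress response had 0 calls of 17 (limma-voom 0; 4 lower at an unadjusted p under 0.05), oxidative phosphorylation 0 of 24 (limma-voom 0; 7 lower), the cell cycle 0 of 6 (limma-voom 0; 0 unadjusted), mitochondrially encoded genes 0 of 7 (limma-voom 0; 0 unadjusted) and interferon and MHC class I genes 0 of 20 (limma-voom 0; 0 unadjusted). With letter b as a term, 8 of the interferon and MHC class I genes were called higher and 0 lower, 4 genes of the integrated stress response lower, 2 of oxidative phosphorylation lower and 1 of the cell cycle lower. Of 11 heat shock genes, Hspa8 (-0.75, adjusted p = 0.0268) and Hsp90ab1 (-0.42, adjusted p = 0.0408) fell and Dnajb4 rose (18.2% lower and 9.09% higher; limma-voom 2 lower and 0 higher). Among 15 immediate early genes 1 rose and 1 fell (6.67% each way), with 8 higher and 1 lower at an unadjusted p under 0.05. Jun rose, at 75.6 and 78.7 RPKM against 27.7 to 34.5 RPKM in beta and 87.0 to 113 RPKM in alpha cells (1.26, SE 0.14, adjusted p = 0.00457), and Maff fell (-0.77, adjusted p = 0.0431), a call that limma-voom did not make (0.183) and that held in 8 of 20 alternatives. Of 28 genes of glycolysis and the citrate cycle Pdk4, which restrains pyruvate oxidation, rose (3.73, adjusted p = 0.00163) and the fumarase gene Fh1 fell (-0.98, adjusted p = 0.0204). Dnajb4 and Pdk4 were below 5 RPKM in every beta library, so the member rule itself placed them above beta. Without beta replicate 3 or transdifferentiated replicate 1 the calls of Edem1 (adjusted p 0.0803 and 0.0601), Dnajb11 (0.082 and 0.0633), Hspa8 (0.089 and 0.0705), Hsp90ab1 (0.143 and 0.137) and Fh1 (0.0666 and 0.0851) were lost. Hsp90ab1 lost its call without any 1 library, Dnajb11 without any 1 beta or transdifferentiated library, and Hspa8 also without alpha replicate 3 or transdifferentiated replicate 2.

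Genes of cholesterol and fatty acid synthesis gave 3 lower and 0 higher calls among 19 (15.8% lower against 3.34% of members; limma-voom 2 lower and 0 higher; 8 lower and 0 higher at an unadjusted p under 0.05). Sqle, the squalene epoxidase, was at 38.1 and 47.9 RPKM against 88.9, 75.8 and 65.9 RPKM in beta and 20.9 to 24.3 RPKM in alpha cells (-0.80, adjusted p = 0.015). Fdft1, squalene synthase, the step before it, was at 16.3 and 18.1 RPKM against 24.4 to 27.4 and 21.4 to 24.8 RPKM (-0.58, adjusted p = 0.0201), and Scd2, a stearoyl-CoA desaturase, at 42.9 and 44.1 against 63.0 to 84.3 and 55.3 to 64.7 RPKM (-0.66, adjusted p = 0.0315). Fdft1 and Scd2 thus lay below all 6 references, while Sqle lay between them. Fdft1 was not called by limma-voom (0.0763), and Scd2 held its call in 9 of 20 alternatives. Without beta replicate 3 or transdifferentiated replicate 1 the adjusted p was 0.0563 and 0.0625 for Sqle, 0.0706 and 0.0756 for Fdft1, and 0.0891 and 0.0939 for Scd2. Fdft1 also lost its call without beta replicate 1 or 2, and Scd2 without alpha replicate 2 or 3, beta replicate 1 or transdifferentiated replicate 2.

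Long noncoding RNAs that stay in the nucleus rose in 4 of 7 members (57.1% against 8.44%; limma-voom 3; median log2 fold change 1.51). Snhg11 and Mirg, among those called, were below 5 RPKM in every beta library. They entered only through the transdifferentiated libraries and could not come out lower. Meg3, Rian and Mirg are neighbours in the imprinted Dlk1 region of chromosome 12. Meg3 was at 89.2 and 85.9 RPKM against 16.0, 42.4 and 19.8 RPKM in beta and 41.5 to 86.0 RPKM in alpha cells (1.93, SE 0.40, adjusted p = 0.0275), Rian at 32.0 and 35.8 against 16.5 to 25.5 and 19.6 to 28.8 RPKM (0.75, SE 0.12, adjusted p = 0.0149), and Mirg at 5.95 and 5.82 against 1.98 to 3.4 RPKM (0.97, adjusted p = 0.0353; limma-voom 0.0881). All 3 calls were lost without beta replicate 3 (adjusted p 0.104 for Meg3, 0.0775 for Rian and 0.091 for Mirg) or transdifferentiated replicate 1 (0.115, 0.055 and 0.113). Meg3 also lost its call without alpha replicate 2 or transdifferentiated replicate 2, and Mirg without any 1 library other than beta replicate 2. Malat1, also nuclear, was at 230.0 and 211 RPKM against 34.8, 159 and 83.5 RPKM and was not called (adjusted p = 0.118). The part of nuclear RNA content of the libraries in these values was not tested.

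**Figure D4:**
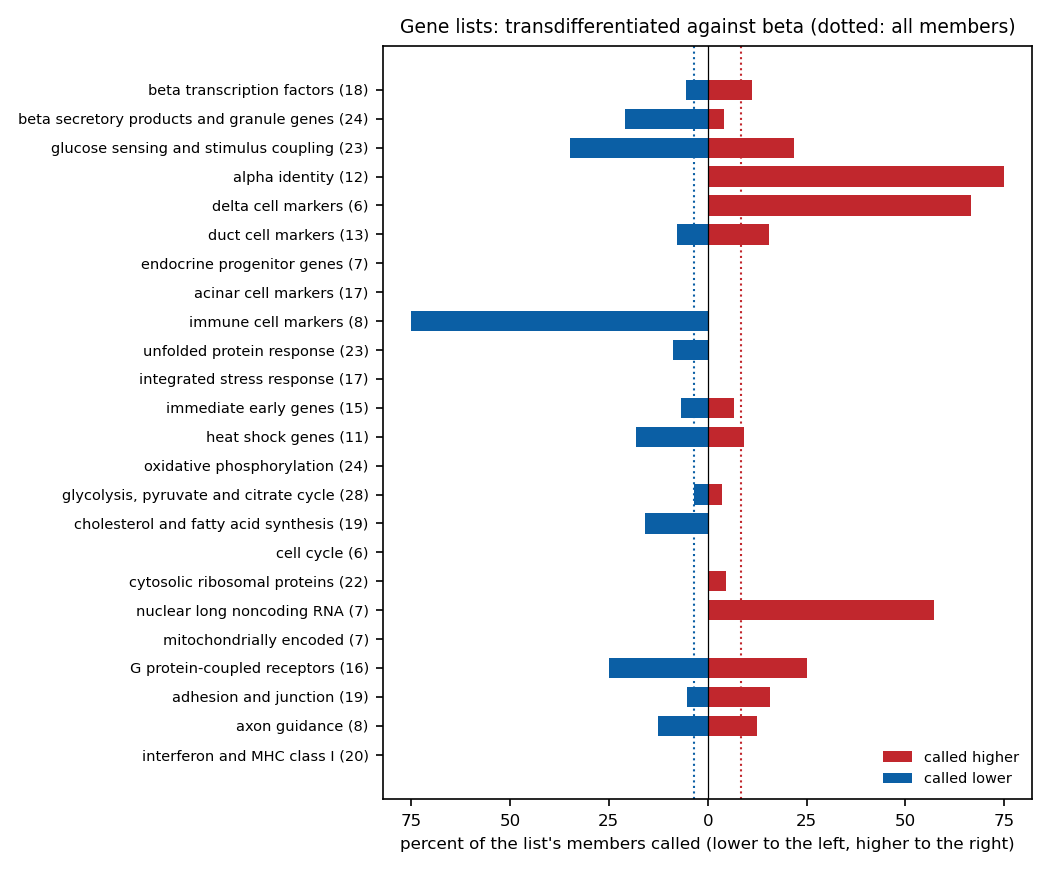
Bars give the percent of each gene list's measured members (number in brackets) called higher (red, right) or lower (blue, left) in transdifferentiated than in beta cells; dotted lines mark all members, 8.44% and 3.34%. Alpha identity, delta and nuclear RNA lists extend to the right and immune markers to the left, while beta cell lists extend both ways. The alpha identity, delta and nuclear RNA lists hold members that entered only through the transdifferentiated libraries. The immune list holds members that entered only through the beta libraries, and the beta cell lists hold members of both kinds.

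On the deposited scale the calls below both references were fewer than those above, and they rested on fewer reads. The 27 genes called lower than beta and below all 6 references had a median of 16 and 32 reads in the transdifferentiated libraries, 9 of them with fewer than 10 in 1 library, and a median length of 2471 bp against 3739 bp for all members. Of the 15 largest of these changes, limma-voom called Dock8, Maob and Scd2. Of these, Dock8 was below 5 RPKM in both transdifferentiated libraries, entered only through the beta libraries and could not come out higher. Dock8, a guanine nucleotide exchange factor best known in immune cells, was at 2.57 and 2.54 RPKM (25 and 43 reads) against 5.11, 5.64 and 4.49 RPKM in beta and 7.24, 7.6 and 7.57 RPKM in alpha cells, a difference on the log2 scale of -0.85 from beta (SE 0.12, adjusted p = 0.0107; limma-voom 0.0434) and of -1.40 from alpha. Maob, a monoamine oxidase of mitochondria, was at 46.7 and 43.0 RPKM against 69.6 to 86.2 and 56.6 to 75.4 RPKM (-0.79, SE 0.15, adjusted p = 0.0236; limma-voom 0.038), a call lost without any 1 beta or transdifferentiated library (0.0548 to 0.081). Psmg2, a chaperone of proteasome assembly, was at 12.1 and 12.6 RPKM (16 and 29 reads) against 24.7 to 31.6 and 16.9 to 21.5 RPKM (-1.15, SE 0.14, adjusted p = 0.00623; limma-voom 0.0795). The mitochondrial transfer RNA gene mt-Tn had no read in either transdifferentiated library, but the floor of 3 reads over the pair is 12.4 RPKM and beta cells had 2.95 to 7.55 RPKM, so a difference was not detectable at this depth.

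**Figure D5:**
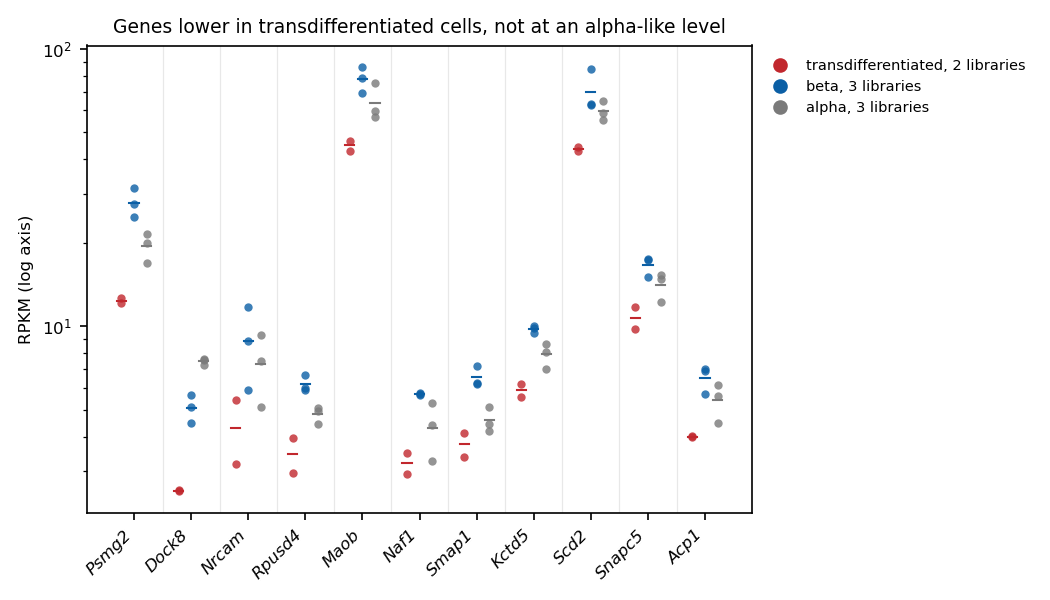
RPKM in every library (points, log axis) with group means (bars) for 11 genes called lower in transdifferentiated cells (red, 2 libraries) than in beta cells (blue, 3), beside alpha cells (grey, 3). They were taken from the largest changes below all 6 references or with like levels in both references. Smap1, Naf1, Acp1, Rpusd4 and Dock8 were below 5 RPKM in both transdifferentiated libraries and entered only through the beta libraries. Maob and Dock8 lie below all 6 reference libraries, whereas 1 of the Nrcam values and 1 of the Naf1 values lie within the alpha range. The difference from alpha cells was not called for Naf1 (limma adjusted p = 0.212) and Smap1 (0.189), among others.

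The limit of 5 RPKM put Ap1g2 (second highest of the 5 values 5.002 RPKM), Zfp61 (5.003) and Mier2 (5.003) just inside the comparison and Map6 (4.997), 4930453N24Rik (4.998) and Nrf1 (4.999) just outside it. A limma fit with an interaction of sex and cell group, added after seeing the data and with 2 residual degrees of freedom, called 0 of 8076 members for a difference between the male and female pools in their distance from beta cells (lowest adjusted p 0.145; 675 at an unadjusted p under 0.05; limma-voom was not run).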

How the data were processed

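RNA sequencing was analysed from 1 deposited table of RPKM with 8 libraries. The authors made these RPKM with STAR 2.5, featureCounts and edgeR 3.14.0 on GRCm38.p4, per the submitters' processing notes; the annotation and the strand setting are not stated there. The kit does not mark strand, per the labels' protocols, so overlapping genes on opposite strands cannot be told apart.

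From the table, 4 entries with repeated names were left out and 27 with date-like names kept. Genes with at least 1 RPKM in at least 2 of 8 libraries (13172) were fitted with limma 3.58.1 in R 4.3.3 (lmFit, eBayes with trend) on log2(RPKM + 0.5), with group and sex as terms. Fold changes on this scale understate those of low genes. A gene was called at a Benjamini-Hochberg adjusted p under 0.05 over all genes fitted. Means are given over libraries, and whether replicates are separate preparations is not stated for all, so p-values may measure technical spread; beta replicates 1 and 2 share a title number and sex, as do alpha replicates 1 and 2, and no pair of libraries agreed within counting noise (chi-square per degree of freedom at least 3.49).

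Reads were recovered from the RPKM steps with GENCODE exon lengths. Of 25349 genes matched, 78.5% came out whole within 0.01 of a read in every library, and reads of 25687 genes summed to 99.97% to 99.98% of each library size. The fit by limma-voom used 13161 of them. Counting floors use 3 reads and cover counting error only.

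Genes named are Mafa, G6pc2 and Gcg; the 15 largest called changes each way with both libraries outside all 6 references; the 10 largest each way where the references differ by less than 0.5; the 6 largest each way; and up to 6 called genes of each of 30 lists, or the 2 with the lowest p. Not all of these are described, and some genes are not reported here. The members, lists and rules were chosen with earlier results of these data known. Alternatives changed the pseudocount, filter, scaling, variance model, sex and letter b terms and libraries used.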

Additional observations from a re-analysis of the deposited data

How the results depend on the processing

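The 952 calls (682 higher, 270 lower) fell to 422 (331 and 91) with limma-voom and to 446 (319 and 127) with no filter on low values, and were 0, 0 and 0 with only the 5 libraries compared. They were 600 (388 higher) among the 5286 members at 10 RPKM. Median-ratio scaling gave 442 higher and 616 lower, and quantile normalization 425 higher. With letter b as a term 1257 were called. Leaving out 1 library gave 162 to 939 in all, 125 to 598 higher and 37 to 341 lower. With at least 10 and 30 reads in each transdifferentiated library, limits chosen after seeing the data, 878 and 724 were called. The cause of these changes was not tested. Among 117 named genes, 7 estimates changed sign, none of them of a called gene: Ramp2 to -0.03 (median-ratio), -0.13 (quantile) and -0.12 (letter b), Reg1 to 1.41 and Zg16 to 1.29 (letter b), mt-Nd2 to -0.58 and mt-Nd4 to -0.40 (quantile). No paired analysis was possible because the titles carry no number shared between the groups. Depth limits genes with few reads in the transdifferentiated libraries.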
